A study of Mus musculus with 6 samples.

Results

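The Hedgehog pathway genes *Ptch1*, *Gli1*, *Gli2*, *Gli3*, *Smo*, *Hhip*, *Boc*, *Gas1* and *Dhh* were followed in perineurial cells of mouse dorsal skin, 9 of the 32285 genes counted. They were taken by symbol, and 2638 of the 20941 cells kept were called perineurial from other genes. All mice carried a tdTomato reporter and *Cdh5*-CreERT2, a tamoxifen-inducible Cre driven by the VE-cadherin promoter, received tamoxifen at 200 µg/g on postnatal day (PD) 17, and gave tdTomato+ cells of dorsal skin for droplet single-cell RNA-seq with 1 library per mouse. Wild-type (WT) mice on a C57BL/6;CD1 background, which also carried *Krt14*-H2BGFP, were taken in telogen, the resting stage of the hair cycle (PD 20, 2 libraries), and in anagen, its growth stage (PD 32, 2 libraries). The Alk1 KO mice (PD 25 in telogen, 2 libraries) were Alk1 flox/flox on C57BL/6, so that they differed from WT telogen mice in genotype, age, strain and reporter together, which cannot be told apart. The paper describes the KO data as an earlier dataset of its authors, and dataset cannot be told apart from these either. Sex is not in the labels, but *Xist*, transcribed from the inactive X, was at 938 CPM (UMIs per 1000000 UMIs) in the first telogen library and at 865 and 856 in Alk1 KO, and at most at 0.0959 in the second telogen and both anagen libraries, where the Y-linked *Ddx3y* was at 98.3 to 101, so that sex differed within telogen and between the groups. Replicates came from separate mice, and the anagen and KO comparisons share the telogen libraries.

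Hedgehog ligands are secreted proteins that bind Patched receptors. Patched holds the transmembrane protein Smoothened in check until the ligand binds, after which Smoothened acts through the Gli transcription factors, and *Gli1* and *Ptch1* are themselves standard targets of active signaling. In peripheral nerves, Schwann cells are known as the source of Desert hedgehog, the product of *Dhh*, and the perineurium, the cell layer that wraps each nerve fascicle, depends on it for its formation.

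The libraries held 32626434 and 43317677 unique molecular identifiers (UMIs) in telogen, 35035677 and 29851591 in anagen, and 10615358 and 11239445 in Alk1 KO. Perineurial cells numbered 545 and 851 in telogen, 307 and 800 in anagen, and 80 and 55 in Alk1 KO, with 3835975, 4939700, 1943813, 3562090, 315494 and 180960 UMIs. Each cell population was named by clusters whose markers fitted, so that a name stands for cells like that type, and the Hedgehog genes took no part in the clustering. All 15 perineurial markers were detected in perineurial cells of every WT library, where they summed to 8883 to 10385 CPM, against 190 to 429 in fibroblast-like cells and 174 to 328 in endothelial cells. Over the 6 libraries, *Cdh5*, whose promoter drives the Cre, was at 189 to 288 CPM in perineurial and 496 to 766 in endothelial cells, and *Pecam1*, an endothelial marker, at 5.53 to 50.9 and 930 to 1047. The sort set how many cells of each type there were, so cell numbers are not those of the tissue. The genotype label of the KO samples reads wild type, while their titles give the KO. *Acvrl1*, which encodes Alk1, stood at 138, 120, 125 and 143 CPM in endothelial cells of the WT libraries and at 110 and 89.1 in Alk1 KO. In perineurial cells it stood at 16.9, 11.5, 24.2 and 24.1 CPM in WT and at 12.7 and 0 in Alk1 KO. The 3′ tags may lie outside the deleted exons, so these levels do not check the label.

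Across all cells, most UMIs of *Gli1*, *Ptch1*, *Boc* and *Gli2* lay in perineurial cells, a share that also depends on the cell numbers set by the sort. Perineurial cells held 83.7% of the 1789 *Gli1* UMIs, 69.7% of the 8966 *Ptch1* UMIs, 68.4% of those of *Boc* and 60.7% of those of *Gli2*. Their share was 45.5% for *Smo*, 37.2% for *Gli3* and 35.4% for *Gas1*. Only 10 of the 370 *Hhip* UMIs and 14 of the 1886 *Dhh* UMIs fell in perineurial cells.

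**Figure D1:**
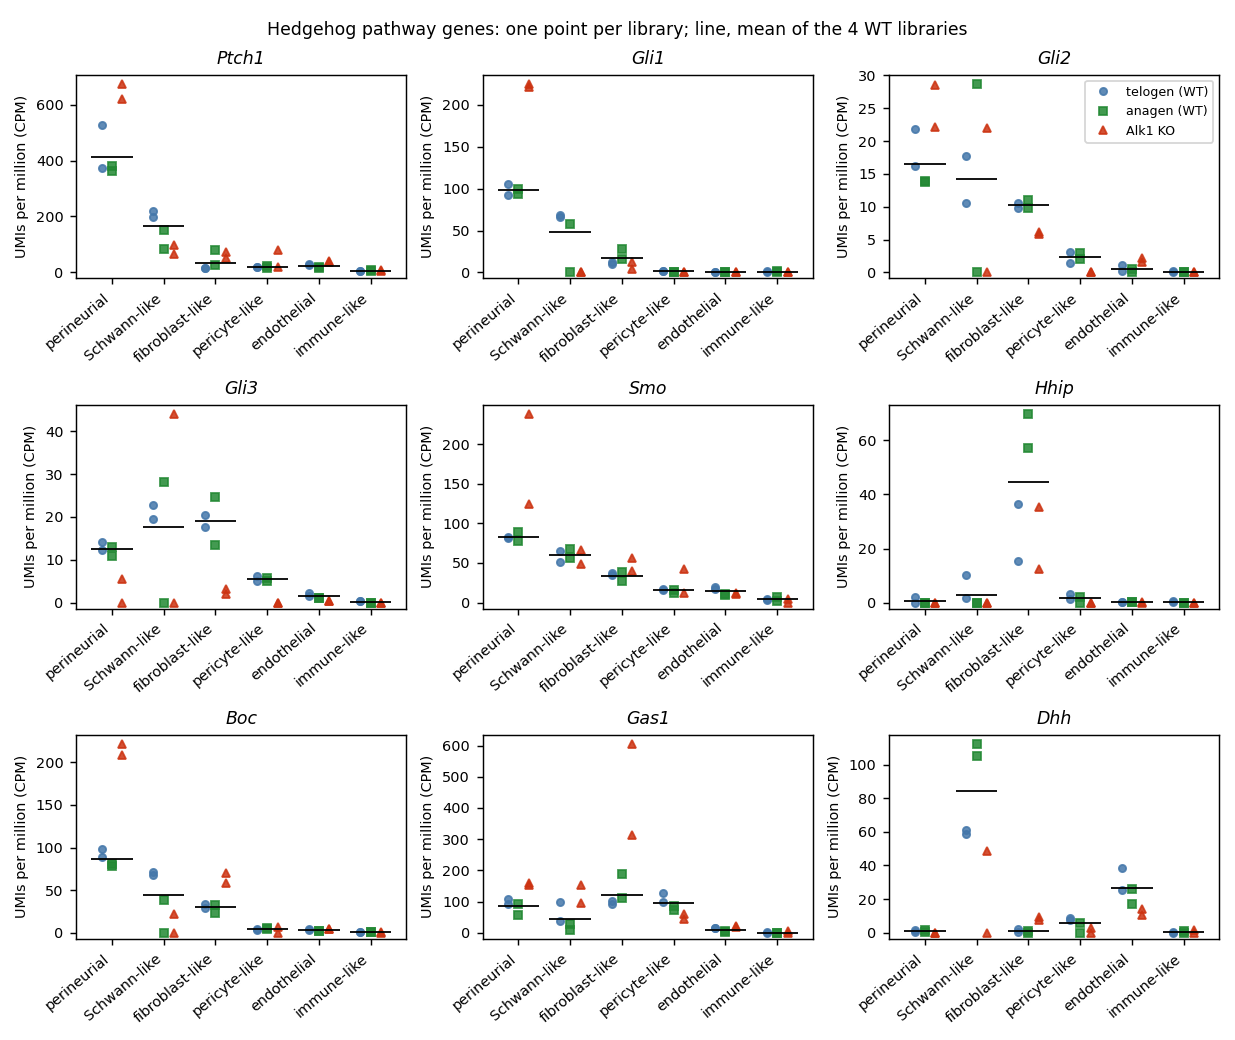
Level of each Hedgehog gene in CPM (vertical axis, linear) in 6 cell populations (horizontal axis). Each point is 1 library, coloured by stage and genotype, and the line is the mean of the 4 WT libraries. By the WT mean, *Ptch1*, *Gli1*, *Smo* and *Boc* were highest in perineurial cells, *Hhip* in fibroblast-like cells and *Dhh* in Schwann-like cells.

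*Ptch1* encodes the receptor itself. Its gene (ENSMUSG00000021466) lies on chromosome 13 at 63508328 to 63573598, minus strand, in GRCm38. In perineurial cells it stood at 527 and 374 CPM in telogen and at 363 and 380 in anagen, a WT mean of 411 ± 77.3 (SD, n = 4). Next came Schwann-like cells with 199, 220, 153 and 84.3 CPM, so that the libraries of the leading populations did not overlap. The mean in fibroblast-like cells was 35.0 ± 29.4, in endothelial cells 22.7 ± 6.43, in pericyte-like cells 19.8 ± 2.89 and in immune-like cells 5.73 ± 1.02, and the first 3 of these overlapped. When each cell was thinned to 1500 UMIs, 34.9% of WT perineurial cells had a *Ptch1* UMI (exact binomial interval 33.0 to 36.8%, 2400 cells) against 1.02% of immune-like cells, a type taken as background, with median depths of 5301.0 and 11859.5 UMIs per cell before thinning. Without thinning the shares were 62.0% and 4.32%. Intervals of shares cover counting error only.

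The 250 bases before the RefSeq start of *Ptch1* are shown because *Ptch1* was higher in perineurial cells in all 4 comparisons of populations below. In GRCm38.p6 they span chr13:63565736-63565985 on the minus strand. That start, at 63565735, lies 7863 bases inside the span of the gene given above, whose other transcripts begin further upstream or downstream.
Ptch1: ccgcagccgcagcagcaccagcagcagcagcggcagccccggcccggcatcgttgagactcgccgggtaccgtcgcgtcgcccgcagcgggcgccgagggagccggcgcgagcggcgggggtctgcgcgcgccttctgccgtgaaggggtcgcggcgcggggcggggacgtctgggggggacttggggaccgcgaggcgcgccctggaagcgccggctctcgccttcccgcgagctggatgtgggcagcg
A window from 250 bases before to 50 after the start was at hand for 7 of the 9 genes, all but *Gli1* and *Boc*. The Gli-binding motif GACCACCCA, searched on both strands, was in 0 of these 7 windows and in 0.289% of the windows of 27025 genes, and with 1 mismatch allowed it was in 0 of 7 and in 7.73%. This says only that these letters are not in these windows.

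*Gli1* encodes a transcription factor whose own transcription follows pathway activity. Its perineurial levels were 106 and 91.9 CPM in telogen and 100 and 93.2 in anagen, a mean of 97.8 ± 6.40 (SD, n = 4). Schwann-like cells had 65.6 and 68.4 CPM in telogen and 57.5 and 0 in anagen, below every perineurial library. In the library at 0 the depth allows up to 84.3 CPM (3 counts). Fibroblast-like cells had 10.3 to 27.7 CPM and overlapped with Schwann-like cells because of the library at 0. The mean was 1.18 ± 0.909 in pericyte-like, 0.756 ± 0.431 in immune-like and 0.474 ± 0.282 in endothelial cells, with overlapping libraries. After thinning, 15.8% of WT perineurial cells (interval 14.4 to 17.4%) and 0.122% of endothelial cells (0.0586 to 0.225%) had a *Gli1* UMI, with median depths of 5301.0 and 5082.0.

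The other Gli factors were low. *Gli2*, mainly an activator, had a WT mean of 16.4 ± 3.79 CPM in perineurial, 14.3 ± 12.1 in Schwann-like and 10.3 ± 0.612 in fibroblast-like cells, with overlap between neighbours. *Gli3*, mainly a repressor, led in fibroblast-like cells at 19.0 ± 4.70 CPM, followed by Schwann-like cells at 17.6 ± 12.3 and perineurial cells at 12.5 ± 1.40, with overlap between neighbours. Perineurial *Gli3* was 12.3 to 14.2 CPM in telogen and 10.8 to 12.9 in anagen, above the 4.99 to 6.23 of pericyte-like cells.

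*Smo* encodes Smoothened. It stood at 82.4, 81.2, 77.2 and 89.3 CPM in perineurial cells of the WT libraries, at 50.7 to 67.1 in Schwann-like cells and at 26.7 to 38.0 in fibroblast-like cells, and these ranges did not overlap. Pericyte-like and endothelial cells followed at 15.3 ± 2.48 and 14.6 ± 5.04 CPM and overlapped. Immune-like cells had 4.08 ± 2.26.

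Among the co-receptors and binding proteins at the cell surface, the WT mean of *Boc* was highest in perineurial cells and those of *Gas1* and *Hhip* were not. *Boc* encodes a membrane co-receptor for Hedgehog ligands. Its perineurial levels were 88.6, 98.2, 78.2 and 80.9 CPM, above the highest Schwann-like library at 71.0 and the highest fibroblast-like one at 33.8. As for *Gli1*, 1 Schwann-like library was at 0, and its depth allows a level within the perineurial range. Pericyte-like, endothelial and immune-like cells had means of 4.34, 3.11 and 0.805. *Gas1*, a lipid-anchored co-receptor, was at 92.0, 107, 56.6 and 93.8 CPM in perineurial cells. The fibroblast-like mean was 123 ± 44.3 and the pericyte-like mean 96.4 ± 23.4, and both overlapped with the perineurial libraries.

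*Hhip*, a membrane protein that binds and sequesters the ligands, is itself a target of the pathway in many tissues. In perineurial cells it was detected in 1 telogen library only, with 10 UMIs in 7 cells and up to 4 in 1 cell, none of them marked as a likely doublet. The other 3 WT libraries had no UMI, which allows up to 0.782, 1.54 and 0.842 CPM (3 counts per library), and Alk1 KO had none, which allows up to 9.51 and 16.6 CPM. In fibroblast-like cells *Hhip* was at 15.4 and 36.5 CPM in telogen and at 57.0 and 69.7 in anagen. So perineurial cells had high *Ptch1* and *Gli1* and *Hhip* at or near 0.

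*Dhh* was near 0 in perineurial cells and was found in Schwann-like and endothelial cells. The perineurial libraries of WT mice had 6, 3, 3 and 2 UMIs, or 1.56, 0.607, 1.54 and 0.561 CPM, and those of Alk1 KO had 0. Of the 14 cells with a *Dhh* UMI, 7 were among the 5% of cells with the highest doublet scores. Schwann-like cells had 58.5 and 60.8 CPM in telogen and 105 and 112 in anagen, the last 2 from 11 and 4 UMIs. Endothelial cells followed at 16.9 to 38.7 CPM with no overlap, and pericyte-like cells at 0 to 8.57. After thinning, 0 of 2400 WT perineurial cells had a *Dhh* UMI, which allows a share of up to 0.125%, against 8.82% of Schwann-like cells (interval 4.11 to 16.1%, 102 cells) and 3.40% of endothelial cells (3.01 to 3.81%). Without thinning the share was 0.559% in perineurial and 0.311% in immune-like cells. The *Dhh* gene overlaps *Rhebl1* on the same strand, so that reads of the 2 genes may be split between them by the counting.

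Schwann-like cells were few, and the larger part of the *Dhh* UMIs lay in endothelial cells, 1407 of 1886 (74.6%) against 73 (3.87%) in Schwann-like cells. A further 334 (17.7%) lay in unnamed cells, which are not part of the endothelial share and levels given here. Among endothelial clusters the one led by *Gkn3*, *Cytl1* and *Gja5* (an arterial connexin) had the highest level, 94.9 to 190 CPM in WT (mean 131, 658 UMIs), a range that overlapped with that of Schwann-like cells. An unnamed cluster led by *Alpl*, *Nebl* and *Pi16*, with 1054 to 1371 CPM of *Pecam1* and 759 to 1186 of *Cdh5*, had 38.5 to 71.5, and the cluster led by *Ackr1*, *Selp* and *Sele* had 21.2 to 38.0. In both perineurial clusters *Dhh* stayed at or below 2.51 CPM in every library. These are descriptions with no test.

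**Figure D2:**
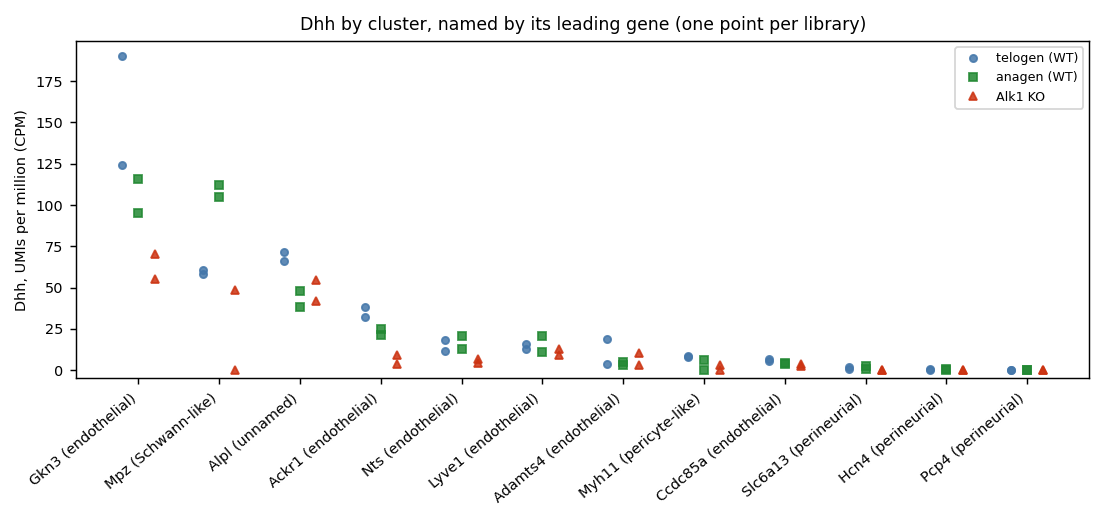
Level of *Dhh* in CPM (vertical axis, linear) in the clusters of endothelial, Schwann-like, pericyte-like and perineurial cells and in 1 unnamed cluster (horizontal axis, named by the leading gene and the cell population). Each point is 1 library, and *Dhh* was highest in the *Gkn3* cluster, at 94.9 to 190 CPM in WT, and at or below 2.51 CPM in the perineurial clusters.

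The Shh and Ihh ligands were looked for as well. *Shh* had 0 UMIs in perineurial, Schwann-like, fibroblast-like and endothelial cells of all 6 libraries. *Ihh* had 5 UMIs in endothelial cells and 0 in the other 3 populations.

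To ask how the perineurial levels differed from those of the other populations, UMIs were summed per library and population and tested by edgeR's quasi-likelihood test, the library being a block, over all genes that passed the filter on low counts. Fold changes below are perineurial over the other population on a log2 scale with SE, adjusted p are Benjamini-Hochberg values over all genes tested, and a gene was called at an adjusted p below 0.05 with a fold above 1.3. The percentages of all genes called hold genes that defined the clusters. A member that passed the filter through only 1 of the populations was tested because of its level there. Members are therefore counted here where the libraries of both populations carried them past it. The percentages are over all genes tested, also those that passed through 1 population, so the 2 are not over like sets of genes. The others are described without a p, and their folds and SE are not read as evidence of a difference. Against endothelial cells 8 members were tested and 4 passed through both populations, all 4 of them higher, where 31.5% of 12208 genes were called higher and 31.4% lower. *Boc* was higher by 4.74 ± 0.14, *Ptch1* by 4.11 ± 0.14 (adjusted p = 3.9e-08), *Gas1* by 3.27 ± 0.33 and *Smo* by 2.47 ± 0.17. *Gli1* (7.54 ± 0.22), *Gli2* (5.14 ± 0.43) and *Gli3* (3.03 ± 0.25) passed through perineurial cells and *Dhh* through endothelial cells, and *Hhip* did not pass.

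Against pericyte-like cells 7 members were tested and 3 passed through both populations, of which 2 were higher and 0 lower, where 25.2% of 9898 genes were called higher and 24.5% lower. *Ptch1* was higher by 4.33 ± 0.15 (adjusted p = 2.6e-08) and *Smo* by 2.26 ± 0.17, and *Gas1* differed by -0.27 ± 0.17 (adjusted p = 0.22). *Gli1* (5.91 ± 0.28), *Boc* (4.35 ± 0.22), *Gli2* (2.81 ± 0.37) and *Gli3* (1.10 ± 0.29) passed through perineurial cells. Pericyte-like cells of all 6 libraries held only 6, 18, 9 and 22 UMIs of these genes. The difference of *Gli3* was 0.95 without the second telogen library and 0.79 with populations called per cell, and it was not called in either.

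Against fibroblast-like cells members went both ways. Perineurial cells were higher in *Ptch1* (3.43 ± 0.34, adjusted p = 8.6e-06), *Gli1* (2.30 ± 0.21, adjusted p = 4.6e-06), *Boc* (1.18 ± 0.12, adjusted p = 1.6e-05) and *Smo* (0.89 ± 0.12, adjusted p = 7.9e-05), and lower in *Gli3* (-0.96 ± 0.17, adjusted p = 0.00073) and *Gas1* (-0.78 ± 0.24, adjusted p = 0.018). Of 8 members tested 7 passed through both populations, and 4 of them were higher and 2 lower, where 25.2% of 10700 genes were called higher and 26.4% lower. *Gli2* differed by 0.35 ± 0.20 (adjusted p = 0.16). *Hhip* passed through fibroblast-like cells alone, and its fold is not given because 3 of its 4 perineurial libraries were at 0. With populations called per cell the difference was 2.27 for *Ptch1*, 1.5 for *Gli1* and 0.51 for *Boc*, each still called, and the fibroblast-like mean of *Ptch1* was 76.5 ± 34.6 CPM in place of 35.0.

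Against Schwann-like cells, the cells nearest in the order of levels, 8 members were tested and 3 passed through both populations, of which 1 was higher and 0 lower, where 11.2% of 8983 genes were called in each direction. *Ptch1* was higher by 1.26 ± 0.25 (adjusted p = 3.5e-05). *Dhh* passed through Schwann-like cells alone, and with 2 to 6 UMIs per perineurial library its fold is not given. *Gli1* (0.69 ± 0.25), *Boc* (0.58 ± 0.25), *Gli2* (0.27 ± 0.44) and *Gli3* (-0.54 ± 0.43) passed through perineurial cells. They reached the filter in all 4 perineurial and in 3 of the 4 Schwann-like libraries. *Gas1* (0.68 ± 0.27, adjusted p = 0.054) and *Smo* (0.47 ± 0.25, adjusted p = 0.18) were not called. Of these 4 genes the fit called *Gli1* alone, and the call was kept in only 10 of 15 alternatives. The difference of *Gli1* was 0.80 without the first telogen library, 0.95 without the second and 0.89 with DESeq2. It was 0.59 with the stricter choice of cells and 0.69 with no library block. The call of *Ptch1* held in all 15 alternatives, at 0.82 to 1.68. *Gas1* was called without the first telogen library (1.70, adjusted p = 0.0031). Schwann-like cells numbered 45, 42, 10 and 8 in the WT libraries, 38.4% of all Schwann-like cells were among the 5% of cells with the highest doublet scores, and perineurial markers summed to 703 to 2567 CPM in them. Without the likely doublets *Ptch1* was higher by 1.32 (adjusted p = 3.7e-05).

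**Figure D3:**
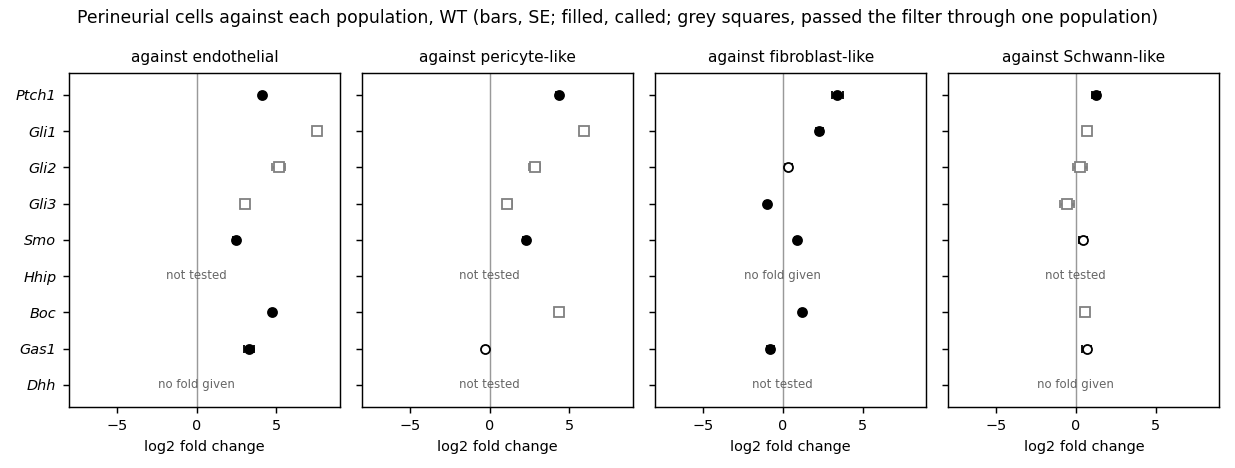
Log2 fold change (horizontal axis) of each Hedgehog gene (vertical axis) in perineurial cells against 4 other populations of the 4 WT libraries. Points are estimates with SE bars, filled circles were called, grey squares are genes that did not pass the filter in each of both populations, and genes with no fold are marked in words. *Ptch1* was called higher in all 4 comparisons.

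The wider pathway was followed with lists chosen beside the members, whose counts also hold genes that passed the filter through 1 population. For most list genes it was not followed which population carried them past the filter. The folds named for them, here and below, may therefore belong to genes tested because of their level in 1 group. Of the 8 genes of reception at the membrane, 7 were tested in each of these comparisons, and 6 were higher and 1 lower than in endothelial cells, 4 higher and 0 lower than in pericyte-like cells, 2 higher and 2 lower than in fibroblast-like cells, and 3 higher and 0 lower than in Schwann-like cells. The glypican *Gpc6*, a cell-surface proteoglycan, was higher in all 4 (9.11 ± 0.20, 2.27 ± 0.18, 1.39 ± 0.11 and 2.57 ± 0.31). *Gpc3*, another glypican, was higher than in endothelial (8.85 ± 0.21), pericyte-like (3.26 ± 0.14) and Schwann-like cells (1.67 ± 0.25) and differed by -0.89 ± 0.15 from fibroblast-like cells. The co-receptor *Cdon* was lower than in fibroblast-like cells (-2.53 ± 0.23).

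Genes of ligand release were mostly not measurable. Of 8, 2 were tested against endothelial cells and both were higher, *Disp1*, which encodes a transporter that releases the ligand, by 1.21 ± 0.20, and *Hhat*, which encodes the enzyme that palmitoylates it, by 1.51 ± 0.31. *Disp1* alone was tested in the other comparisons, and was higher than in pericyte-like cells (3.07 ± 0.57) and did not pass against fibroblast-like (0.11 ± 0.25, adjusted p = 0.77) or Schwann-like cells (-0.90 ± 0.46, adjusted p = 0.17).

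Of 22 genes of transduction at the cilium and in the cytosol the counts differed between comparisons. Against endothelial cells 9 of 21 tested were higher and 6 lower, with *Evc2* (3.47 ± 0.21) and *Gpr161* (2.96 ± 0.24), which encode ciliary proteins, higher and *Numb* lower (-1.18 ± 0.13). Against pericyte-like cells 2 of 17 were higher and 5 lower, with *Prkar1a* (-1.17 ± 0.12) and *Prkacb* (-1.35 ± 0.17), subunits of protein kinase A, and *Spop* (-1.06 ± 0.15), a ubiquitin ligase adaptor, lower. Against fibroblast-like cells 3 of 20 were higher and 3 lower, with *Cul3* (-0.58 ± 0.10) and *Evc* (-0.81 ± 0.16) lower and the intraflagellar transport gene *Ift88* higher (1.01 ± 0.25). Against Schwann-like cells 0 of 18 were higher and 4 lower, with *Itch* (-1.35 ± 0.25), *Spop* (-0.68 ± 0.20) and *Kif3a* (-0.88 ± 0.27) lower, *Kif3a* being a motor subunit needed for cilia.

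Reported targets other than *Ptch1*, *Gli1* and *Hhip* went both ways too. Against endothelial cells 5 of 12 tested were higher and 5 lower, with *Rab34* (4.81 ± 0.12) and *Sfrp1* (5.74 ± 0.18) higher. Against pericyte-like cells 4 of 10 were higher and 5 lower, with *Sfrp1* (5.12 ± 0.22) and *Rab34* (2.38 ± 0.15) higher and *Foxf1* lower (-5.37 ± 0.38). Against fibroblast-like cells 4 of 11 were higher and 4 lower, with *Hsd11b1* (-5.78 ± 0.30), *Osr1* (-3.73 ± 0.25) and *Bmp4* (-3.66 ± 0.28) lower. Against Schwann-like cells 3 of 7 were higher and 1 lower, with the cyclin gene *Ccnd1* lower (-0.62 ± 0.21). *Igf2*, counted as higher, had 1 UMI in Schwann-like cells of the WT libraries. It passed the filter through perineurial cells alone, so its fold is not given. The median log2 difference of the targets was 0.18, -0.48, 0.19 and 0.31 in these comparisons, beside 0.01, 0.04, 0.03 and 0.06 over all genes tested. That of the transduction genes was 0.01, -0.21, -0.13 and -0.19. The counts of these lists stand beside the shares of all genes called in the same comparisons, 31.5% higher and 31.4% lower, 25.2% and 24.5%, 25.2% and 26.4%, and 11.2% in each direction.

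Perineurial cells themselves were not uniform. They fell into a cluster of 1400 cells led by *Slc6a13*, *Crabp2* and *Kcnj13*, a cluster of 1068 cells led by *Hcn4*, *Cldn22* and *Sfrp5*, and 170 shallow cells led by *Pcp4* with a median of 1393.5 UMIs. The first cluster showed 2 of the 4 markers of perineurial subtype 1 and stayed without a subtype name, the second showed 3 of the 4 of subtype 2, and the clusters are named here by their leading genes. *Ptch1* was at 799, 584, 487 and 560 CPM in the *Slc6a13* cluster of the WT libraries and at 153, 166, 157 and 152 in the *Hcn4* cluster, with no overlap. *Gli1* was at 133, 117, 120 and 119 against 68.9, 67.5, 70.3 and 63.5 CPM, again with no overlap. *Gas1* went the other way, with 46.1, 41.7, 29.3 and 61.3 against 157, 172, 103 and 142 CPM.

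Over all 6 libraries, with the library as a block, 7 members were tested and 6 passed through both clusters, of which 3 were higher in the *Slc6a13* cluster and 1 lower, where 12.4% of 8843 genes were called higher and 11.4% lower. *Ptch1* was higher by 1.86 ± 0.11 (adjusted p = 3.2e-11), *Gli1* by 0.74 ± 0.12 (adjusted p = 5.3e-05) and *Smo* by 0.54 ± 0.11 (adjusted p = 0.00073), and *Gas1* differed by -1.63 ± 0.15 (adjusted p = 2e-08). *Boc* (0.10 ± 0.11, adjusted p = 0.55) and *Gli2* (0.38 ± 0.22, adjusted p = 0.2) did not pass. *Gli3* (1.38 ± 0.31) reached the filter in 5 of 6 sums of the *Slc6a13* cluster and in 1 of 6 of the other. *Boc* ranged from 71.1 to 105 CPM in the one and from 77.7 to 94.1 in the other in WT. In Alk1 KO alone *Gli1* had the clusters in no fixed order, 212 and 246 CPM in the *Slc6a13* cluster and 256 and 219 in the *Hcn4* cluster. After thinning, 48.0% of WT cells of the *Slc6a13* cluster (interval 45.2 to 50.7%) and 18.7% of those of the *Hcn4* cluster (16.3 to 21.3%) had a *Ptch1* UMI, with median depths of 5321.0 and 5750.0. In WT the *Slc6a13* and the *Hcn4* cluster differed in the sums of fibroblast markers (15588 to 17380 against 9929 to 12991 CPM), perineurial markers (6954 to 8111 against 11136 to 13803), endoneurial fibroblast markers (208 to 274 against 48.8 to 59.5), Schwann markers (80.3 to 108 against 236 to 368) and pericyte markers (309 to 386 against 220 to 274). The part of these markers in the difference was not tested.

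In the pathway lists, *Gpc6* (-1.72 ± 0.13) and the Smoothened modulator *Mosmo* (-0.40 ± 0.14) were the 2 of 7 reception genes called, both lower in the *Slc6a13* cluster, and *Cdon* did not pass (-0.72 ± 0.29, adjusted p = 0.067). *Csnk1a1* (0.68 ± 0.10), a casein kinase gene, and *Gpr161* (1.11 ± 0.31) were the 2 of 18 transduction genes called, both higher, and *Cul3* did not pass (0.30 ± 0.12, adjusted p = 0.067). Of 7 targets tested, 3 were higher and 2 lower, with *Ccnd2* higher (0.96 ± 0.11) and *Igf2* (-2.74 ± 0.27) and *Sfrp1* (-0.82 ± 0.09) lower. *Disp1* did not pass (-0.48 ± 0.33, adjusted p = 0.31).

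Next, the stages of the hair cycle were compared. Between anagen and telogen, 0 of the 7 members tested in perineurial cells passed with edgeR, 0 had an unadjusted p under 0.05 and 0 passed with DESeq2, where 0.537% of 11169 genes were called higher and 0.0537% lower. The log2 differences, anagen over telogen, were -0.20 ± 0.16 for *Ptch1*, 0.05 ± 0.14 for *Gli1*, -0.39 ± 0.24 for *Gli2*, -0.06 ± 0.24 for *Gli3*, 0.11 ± 0.14 for *Smo*, -0.15 ± 0.14 for *Boc* and -0.31 ± 0.22 for *Gas1*, with adjusted p of 0.51 to 0.94. The *Gas1* difference passed without the second anagen library (-0.72, adjusted p = 0.043). Of the pathway lists 0 of 2 release genes, 0 of 7 reception genes, 0 of 21 transduction genes and 0 of 9 targets passed, and the smallest adjusted p was 0.16, for *Spop* (-0.47 ± 0.13). Beside it *Prkaca* (0.35 ± 0.16) and *Cul3* (-0.33 ± 0.16) led the transduction genes, *Osr1* (1.08 ± 0.33), *Sfrp1* (-0.36 ± 0.14) and *Ccnd1* (-0.49 ± 0.26) the targets, *Mgrn1* (0.22 ± 0.17) and *Cdon* (0.21 ± 0.34) reception, and *Disp1* (0.51 ± 0.29) and *Hhat* (-0.14 ± 0.51) release. Endothelial markers summed to 647 to 686 CPM in anagen perineurial cells and to 329 to 394 in telogen ones, and their part was not tested.

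Fibroblast-like cells gave other values at anagen. Their *Ptch1* was at 17.3 and 16.8 CPM in telogen and at 27.6 and 78.5 in anagen, and *Hhip* at 15.4 and 36.5 against 57.0 and 69.7. The stages were not tested within fibroblast-like cells. The difference between the populations in the anagen response, perineurial minus fibroblast-like, was -1.81 ± 0.37 for *Ptch1* (adjusted p = 0.12), -0.93 ± 0.34 for *Gli1* (adjusted p = 0.47) and -0.94 ± 0.36 for *Gas1* (adjusted p = 0.52). For *Gli2*, *Gli3* and *Smo* it was -0.46 ± 0.40, -0.12 ± 0.35 and 0.22 ± 0.23, and for *Boc* it was close to 0 with an SE of 0.33. All perineurial UMIs of *Hhip* lay in the second telogen library, so its difference is not given. With edgeR 0 of 8 members passed, 4 had an unadjusted p under 0.05, and 0 passed with DESeq2, where 0.173% of 11591 genes were called higher and 0.0863% lower. *Ptch1* stayed without a call in 7 of 12 alternatives and *Gas1* in 10 of 12, and both were called in the others. With each library left out in turn, the *Ptch1* difference was -1.61 (first telogen), -1.98 (second telogen), -2.36 (first anagen) and -0.94 (second anagen). That of *Gas1* lay between -1.75, without the second anagen library, and -0.22. The second anagen library, with the highest fibroblast *Ptch1*, had dermal papilla markers at a sum of 240 CPM in its fibroblast-like cells, against 69.5 in the first anagen library and 27.6 to 31.5 in telogen, and their part was not tested. Of the lists, *Ccnd1* alone passed, at -1.44 ± 0.23 (adjusted p = 0.038). The next were *Gpc3* (-0.75 ± 0.18) and *Cdon* (0.67 ± 0.44) of reception, *Spop* (-0.42 ± 0.20), *Gpr161* (1.24 ± 0.70) and *Grk2* (-0.50 ± 0.33) of transduction, *Osr1* (1.32 ± 0.37) and *Ccnd2* (0.47 ± 0.18) of the targets, and *Hhat* (-0.96 ± 0.81), *Disp1* (0.59 ± 0.51) and *Scube1* (-0.30 ± 1.43) of release.

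Last, Alk1 KO was compared with WT telogen in perineurial cells. *Gli1* stood at 225 and 221 CPM in Alk1 KO against 106 and 91.9 in telogen, *Boc* at 209 and 221 against 88.6 and 98.2, and *Smo* at 124 and 238 against 82.4 and 81.2. *Ptch1* stood at 621 and 674 CPM against 527 and 374, and *Gas1* at 152 and 160 against 92.0 and 107. Of 7 members tested 3 were higher, *Boc* by 1.10 ± 0.20 (adjusted p = 0.0015), *Gli1* by 1.09 ± 0.20 (adjusted p = 0.0017) and *Smo* by 0.96 ± 0.24 (adjusted p = 0.012), and 0 were lower, where 6 of the 7 passed the filter in each of both groups and 10.1% of 10311 genes were called higher and 11.4% lower. *Gas1* (0.55 ± 0.21, adjusted p = 0.082), *Ptch1* (0.42 ± 0.22, adjusted p = 0.19) and *Gli2* (0.36 ± 0.48, adjusted p = 0.64) did not pass. *Gli3* had 1 UMI in 496454 in Alk1 KO against 117 in 8775675 in telogen, a ratio of 0.151 (95% counting interval 0.00379 to 0.858). That interval pools the mice of a group and does not cover the spread between them. *Gli3* reached the filter in both telogen libraries and 1 KO library and was not called. For *Dhh* the 0 UMIs of Alk1 KO say nothing, since 0.509 would have been found at the telogen level.

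Without the first telogen library the *Boc* (0.99, adjusted p = 0.063) and *Smo* (0.96, adjusted p = 0.08) calls were lost, without the second those of *Gli1* (0.97, adjusted p = 0.063) and *Smo* (0.95, adjusted p = 0.076), and without the second KO library that of *Smo* (0.54, adjusted p = 0.11). The *Smo* call was kept in 7 of 13 alternatives, and was also lost with the stricter choice of cells (0.95, adjusted p = 0.0502), with populations called per cell (0.82, adjusted p = 0.12) and with no correction between libraries (0.67, adjusted p = 0.14). Without the second telogen library, the only one compared here with *Xist* near 0, the difference was 1.16 for *Boc*, 0.97 for *Gli1* and 0.95 for *Smo*. The same order held within the clusters: *Gli1* was at 212 and 246 CPM against 133 and 117 in the *Slc6a13* cluster and at 256 and 219 against 68.9 and 67.5 in the *Hcn4* cluster, and *Boc* at 225 and 221 against 96.8 and 105 and at 209 and 241 against 77.7 and 92.7. *Ptch1* was at 951 and 1007 CPM against 799 and 584, and at 324 and 438 against 153 and 166. These within-cluster values come from 20 to 39 KO cells each and were not tested. Perineurial cells of Alk1 KO had median depths of 3775.5 and 3011.0 UMIs against 6413.0 and 5583.0 in telogen, and fibroblast markers summed to 7985 to 8282 CPM in them against 13386 to 13999. Perineurial markers summed to 7449 to 7604 against 8883 to 9371, Schwann markers to 82.9 to 105 against 179 to 217, dermal papilla markers to 66.3 to 82.4 against 223 to 228, immune markers to 6.34 to 11.1 against 80.8 to 110, endoneurial fibroblast markers to 216 to 384 against 156 to 183 and pericyte markers to 354 to 428 against 320 to 326. The part of depth, of sex and of these markers was not tested beyond the values given.

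**Figure D4:**
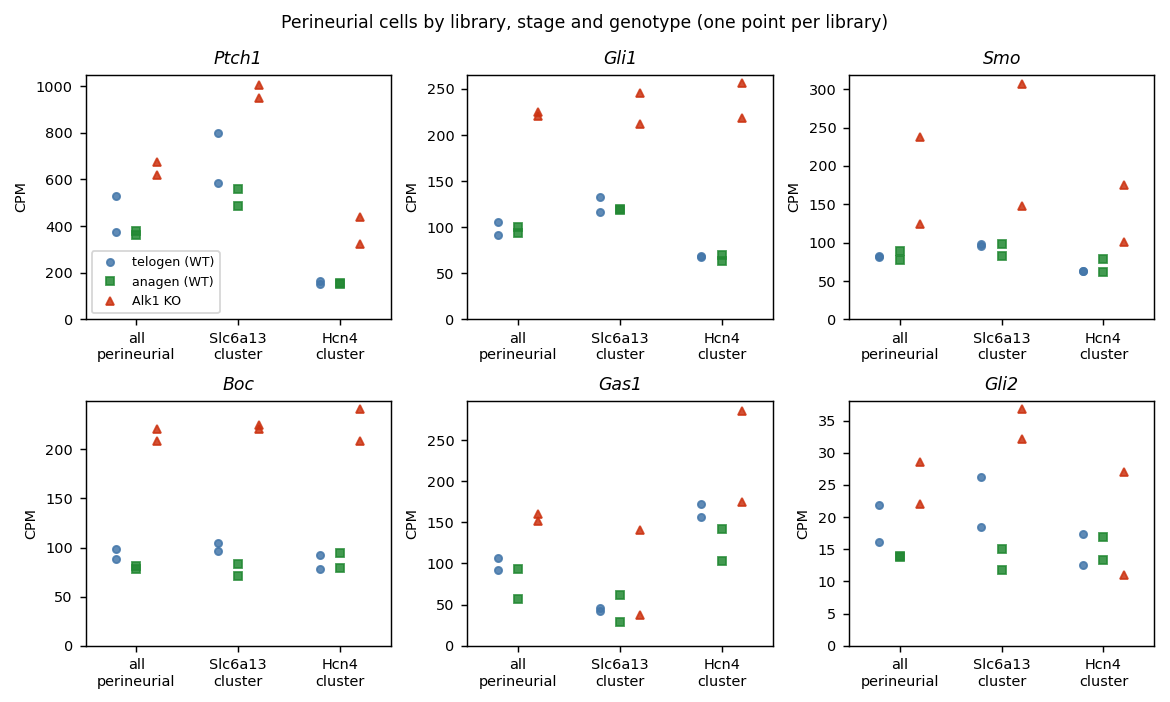
Levels of 6 Hedgehog genes in CPM (vertical axes, linear) in all perineurial cells and in their *Slc6a13* and *Hcn4* clusters (horizontal axis), with 1 point per library, coloured by stage and genotype. *Gli1* and *Boc* of both Alk1 KO libraries lay above all WT libraries in each set of cells, and *Ptch1* was higher in the *Slc6a13* than in the *Hcn4* cluster in each library.

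The counts of the pathway lists stand beside 10.1% of all genes called higher and 11.4% lower in Alk1 KO. Of 7 reception genes 1 was higher, *Mosmo* (1.07 ± 0.29, adjusted p = 0.019), and 1, *Cdon*, was counted as lower. *Cdon* had 0 UMIs in Alk1 KO, where 4.81 would have been found at the telogen level, against 85 in telogen. The counting interval of its ratio, Alk1 KO to telogen, reached up to 0.784 and does not cover the spread between mice. *Cdon* passed the filter through telogen alone, so its fold and adjusted p are not given. *Gpc3* did not pass (-0.80 ± 0.28, adjusted p = 0.058). Of 20 transduction genes *Prkar1a* was lower (-1.0 ± 0.21, adjusted p = 0.0046) and 0 were higher, and *Evc* (1.05 ± 0.45, adjusted p = 0.11) and *Iqce* (-2.23 ± 1.19, adjusted p = 0.2) did not pass. Of 8 targets 1 was higher, the survival gene *Bcl2* (1.43 ± 0.36, adjusted p = 0.012), and 3 were lower, among them *Sfrp1* and *Ccnd1* (-1.87 ± 0.28 and -2.37 ± 0.35, each with an adjusted p of 0.00042). The release genes *Disp1* (0.46 ± 0.68, adjusted p = 0.68) and *Hhat* (0.61 ± 0.96, adjusted p = 0.7) did not pass. The median was -1.0 for the targets, -0.31 for reception, 0.18 for transduction and 0.53 for the 2 release genes, beside -0.05 over all genes.

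Whether fibroblast-like cells answered alike was tested with the interaction, perineurial minus fibroblast-like. Of 9 members 0 were higher and 2 lower, *Gas1* (-1.50 ± 0.28, adjusted p = 0.011) and *Ptch1* (-1.25 ± 0.31, adjusted p = 0.044), where 2.10% of 10672 genes were called higher and 2.07% lower. The median over all genes was -0.11, and 0.002 with the size factors of DESeq2, which called 331 genes higher and 210 lower against 224 and 221. *Gas1* in fibroblast-like cells was at 604 and 312 CPM in Alk1 KO against 91.1 and 101 in telogen, and *Ptch1* at 52.1 and 74.6 against 17.3 and 16.8. For *Gli1* the difference was 1.93 ± 0.58 (adjusted p = 0.091), with fibroblast-like levels of 3.93 to 12.3 CPM in Alk1 KO and 10.3 to 12.5 in telogen. For *Gli2*, *Smo* and *Boc* it was 1.26 ± 0.80, 0.81 ± 0.31 and 0.28 ± 0.29 (adjusted p of 0.43, 0.19 and 0.67). *Gli3*, *Hhip* and *Dhh*, with KO libraries at 0, were not called, and their differences are not given. Both calls were lost without either telogen library (adjusted p of 0.083 to 0.35), that of *Ptch1* without the second KO library (adjusted p = 0.2) and with likely doublets removed (adjusted p = 0.21), and that of *Gas1* without the first (adjusted p = 0.18). Fibroblast markers summed to 16911 to 24399 CPM in the fibroblast-like cells of Alk1 KO, 47 and 74 cells, against 84176 to 91759 in telogen. The fibroblast-like name joined 540 cells of a cluster with 12 of 12 fibroblast markers and 260 cells of one with 4 of 12. Their median depths were 14602.5 and 1333.5 UMIs. The part of these markers and clusters was not tested. Of the lists, *Gpc6* was higher (2.41 ± 0.53, adjusted p = 0.026) and *Spop* lower (-1.29 ± 0.24, adjusted p = 0.011), and 0 of 10 targets and 0 of 1 release genes passed. The next were *Mosmo* (0.68 ± 0.36), *Evc* (2.27 ± 0.68) and *Evc2* (1.38 ± 0.72), *Rab34* (-0.97 ± 0.29), *Igf2* (-1.78 ± 0.55) and *Sfrp1* (-1.04 ± 0.36), and *Disp1* (2.41 ± 1.25).

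Finally, genes with a pattern like that of 3 members were sought over the 36 sums of 6 populations and 6 libraries, among 10938 genes with a mean of at least 5 CPM, by Pearson's r of log2(CPM + 1). The sums share libraries and depth, so r is a description. *Ptch1* was most like *Smo* (r = 0.892), a member itself, then *Mid1ip1* (0.887), *Ccnd3* (0.880), *Paxx* (0.874) and *Lmo4* (0.871). *Gli1* was most like *Foxd1* (0.966), *Shisa3* (0.949), *Thbs4* (0.944), *Steap2* (0.942) and *Gjb5* (0.940), of which *Thbs4* is among the perineurial markers. *Dhh* was most like *Inka1* (0.831), *Pllp* (0.811), *Egfl8* (0.794), *Mal* (0.781) and *Cep85l* (0.778). The myelin genes *Pllp* and *Mal* are known in Schwann cells, and *Egfl8* was among the leading genes of the endothelial *Gkn3* cluster.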

How the data were processed

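Transcripts were counted by scRNA-seq of sorted tdTomato+ cells of 6 mice. The deposited files hold raw UMI counts for each gene in each cell, neither normalized nor pooled, for which the authors used Cell Ranger 6.0.1 with mm10 and 3′ libraries. The submitters' processing notes also name Seurat 4.0, and none of its output was used here.

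Cells with 200 to 5000 genes and less than 10% mitochondrial UMIs entered (total UMIs and cells per library are given above). After scaling and log transformation, 3000 variable genes, leaving out 61 Hedgehog genes, gave 30 principal components, corrected between libraries by the Harmony algorithm (theta 2, sigma 0.1). Leiden clusters (resolution 0.6, 20 neighbours) took a name where 3 or more markers were at least 2-fold above other cells and in 25% or more of their cells. Doublets were kept, and an alternative left out the 5% of cells per library with the highest Scrublet scores. Libraries shared 2 to 13 cell barcodes per pair. Sums of UMIs over at least 5 cells per library and population went through filterByExpr and TMM scaling into the quasi-likelihood test of edgeR 4.0.16, with the Benjamini-Hochberg method and the library as a block between populations. DESeq2 1.42.0, other filters and scalings, other ways to call cells and leaving out each library were alternatives. Shares of cells with a UMI were counted at 1500 UMIs per cell with exact binomial 95% intervals, and a count of 0 was taken to allow 3 counts. The test was tried on simulated data.

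The members, gene lists and tests were chosen with earlier results of these data known. The text names all 9 members in every comparison, *Acvrl1*, the 3 genes of each pathway list with the smallest adjusted p (1 gene these rules name is not reported here), and the 5 genes most like *Ptch1*, *Gli1* and *Dhh*. Perineurial subtypes were to be compared, but since 1 of the clusters reached 2 of 4 subtype markers, clusters are named by leading genes, a choice made after seeing the data. Gene positions are from GENCODE M21 on GRCm38 (mm10), promoters from RefSeq on GRCm38.p6.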

Additional observations from a re-analysis of the deposited data

Results flagged for a closer look

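For 2 members the difference between Alk1 KO and telogen was not the same in perineurial and fibroblast-like cells by the interaction term of edgeR. It differed by -1.50 for *Gas1* and by -1.25 for *Ptch1* on the log2 scale. *Gas1* and *Ptch1* were higher in both KO libraries than in both telogen libraries in each population, by more in fibroblast-like cells. Genotype, age, strain, reporter and dataset differ together in this comparison. Fibroblast-like cells also had lower sums of fibroblast markers in Alk1 KO than in telogen, and the part of this was not tested. As to *Gas1* and *Ptch1*, the calls were not stable. Neither passed with DESeq2 or without either telogen library.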

How the results depend on the processing

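Over all comparisons, 848 of 898 values of members under an alternative stayed on their side of the threshold, 26 lost the call, 22 gained it and 2 were reversed. Direction was compared only where at least 1 of the fits called the member. Values called in neither fit could change sign and still count among the 848. Members called against endothelial cells and between the perineurial clusters kept their calls in every alternative in which they could be tested. The cause of the changes below was not tested, and counts of members here include those that passed the filter through 1 population.

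A stricter choice of cells (minimum 500 genes, maximum 5% mitochondrial UMIs) gave 3237 genes called against pericyte-like cells (4915 in the report's fit), 1133 against Schwann-like cells (2019), 25 between anagen and telogen (66) and 1 member, *Ptch1*, in the anagen difference between populations (0). Against Schwann-like cells, 5 members were called with no filter on low counts and with the size factors of DESeq2 in edgeR (3). DESeq2 itself called 1200 genes there and the fit with all 6 libraries 1077. Over all alternatives of this comparison 1025 to 2777 genes were called. No filter on low counts gave 676 genes between anagen and telogen, 208 genes (30) and 3 members in the anagen difference and 839 genes (445) in the KO difference. DESeq2 gave 136 genes between anagen and telogen and 0 members (2) in the KO difference. Removing likely doublets gave 21 genes between anagen and telogen, 14 in the anagen difference and 1 member in the KO difference. Populations called per cell gave 40 genes between anagen and telogen, 1221 between KO and telogen (2220), and 157 genes and 0 members in the KO difference. No correction between libraries gave 103 genes between anagen and telogen, 1382 between KO and telogen and 1078 in the KO difference, where *Ptch1* (8.41) and *Gas1* (10.89) were reversed. In that setting KO fibroblast-like cells numbered 10 and 9 and had 0 UMIs of both genes.

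Leaving out 1 library gave 1025 to 2360 genes and 2 to 3 members against Schwann-like cells, 18 to 392 genes and 0 to 1 members between anagen and telogen, 919 to 2473 genes and 1 to 3 members between KO and telogen, 107 to 136 genes and 1 to 2 members in the anagen difference, and 178 to 557 genes and 0 to 1 members in the KO difference. Where this left 1 library in a group, its spread was taken to be like that of the others.

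2 alternatives were chosen after seeing the data. With the telogen libraries alone, *Ptch1* kept its call against Schwann-like cells. With the 4 WT libraries, *Ptch1*, *Gli1*, *Smo* and *Gas1* kept their calls between the perineurial clusters.

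Deviations of same-numbered libraries from their group means correlated at -0.02 (stage) and 0.02 (KO), so the numbers do not pair the libraries. With the replicate block 435 genes and 0 members were called between anagen and telogen, and 2051 genes and 3 members between KO and telogen.

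Depth limits *Gli3*, *Hhip*, *Cdon* and *Dhh* in Alk1 KO, where perineurial cells were 80 and 55, and every gene in Schwann-like cells of anagen, 10 and 8 cells.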
